A study of Homo sapiens with 4 samples.

Results

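The comparison set the MDA-MB-231 control library against the Ca1a control library, 2 human breast cancer cell lines carrying a control vector. Its members were the genes with an FPKM of at least 1 in at least 1 of the 2 control libraries, 12101 of the 39261 genes in the deposited tables. FPKM is a level that scales the fragments of a transcript to its length and to the depth of the library. Of these genes, 9658 reached 1 FPKM in both control libraries, 1688 only in MDA-MB-231 and 755 only in Ca1a. Differences are log2 ratios of FPKM + 1, MDA-MB-231 over Ca1a, so that a positive value is a higher level in MDA-MB-231.

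The series held 4 libraries of total RNA, 1 per group. MDA-MB-231 cells, grown in L15 medium with fetal bovine serum, carried either the control vector, named sh-NC in the design, or a construct for TMEM126A knockdown. Ca1a cells (MCF10-Ca1a), grown in DMEM/F12 with horse serum, insulin, EGF, cholera toxin and hydrocortisone, carried either the control vector pCDH or a TMEM126A overexpression construct. All constructs were delivered by lentivirus. Line, medium, serum and type of control vector changed together between the 2 groups, so their parts in any difference cannot be told apart. With 1 library a side no test was possible, and genes were called by size alone, as at least 2-fold higher or lower. The treated library of each line gave a second pair, and a gene was counted as held when it passed 2-fold on the same side in all 4 pairs of an MDA-MB-231 and a Ca1a library. Those 4 pairs share libraries, are not replicates, and do not separate line from medium.

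Epithelial cells are joined by adherens junctions, tight junctions and desmosomes, and keep this state through transcription and splicing factors of the grainyhead, OVOL and ESRP families. In epithelial to mesenchymal transition, factors of the ZEB, SNAI and TWIST families, which bind E-box sequences in the promoters of junction genes, lower those genes, and vimentin, fibronectin and matrix proteases are raised. MDA-MB-231 is a line of triple-negative breast cancer with mesenchymal character. Ca1a is a malignant derivative of MCF10A, a mammary epithelial line with basal features, obtained through cells that carry activated HRAS.

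Of the 12101 genes, 2629 (21.7%) were at least 2-fold higher in the MDA-MB-231 control and 1372 (11.3%) at least 2-fold lower, together 33.1%. The median log2 ratio was 0.26, with quartiles at -0.37 and 0.89. At 4-fold, 748 genes (6.18%) were higher and 465 (3.84%) lower. Many called genes stayed under 1 FPKM in 1 line: 1251 of the genes called higher and 547 of those called lower were under 1 FPKM in the other line. A gene that passed the filter in 1 line only could differ only toward that line. Among the genes above 1 FPKM in both, 14.3% were higher and 8.54% lower. In contrast, 4748 genes (39.2%) had a ratio under 0.5 in size.

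The split between higher and lower calls depended on the scale. On the deposited FPKM, 65.7% of called genes were higher in MDA-MB-231. The share was 54.5% with ratios centred on genes above 1 FPKM in both libraries, a shift of 0.18 on the log2 scale. It was 37.7% with ratios centred on housekeeping genes (a shift of 0.44) and 85.5% with ratios centred on cytosolic ribosomal protein genes (a shift of -0.47). Reads scaled to library totals gave 66.8%, and 51.4% with TMM factors. Medians of the gene lists below are therefore read beside the median of 0.26 over all genes, and each list whose median changed sign on another of these scales is pointed out. Counts of called members are read beside the shares of all genes, 21.7% higher and 11.3% lower. A share near these is no trait of a list.

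**Figure D1:**
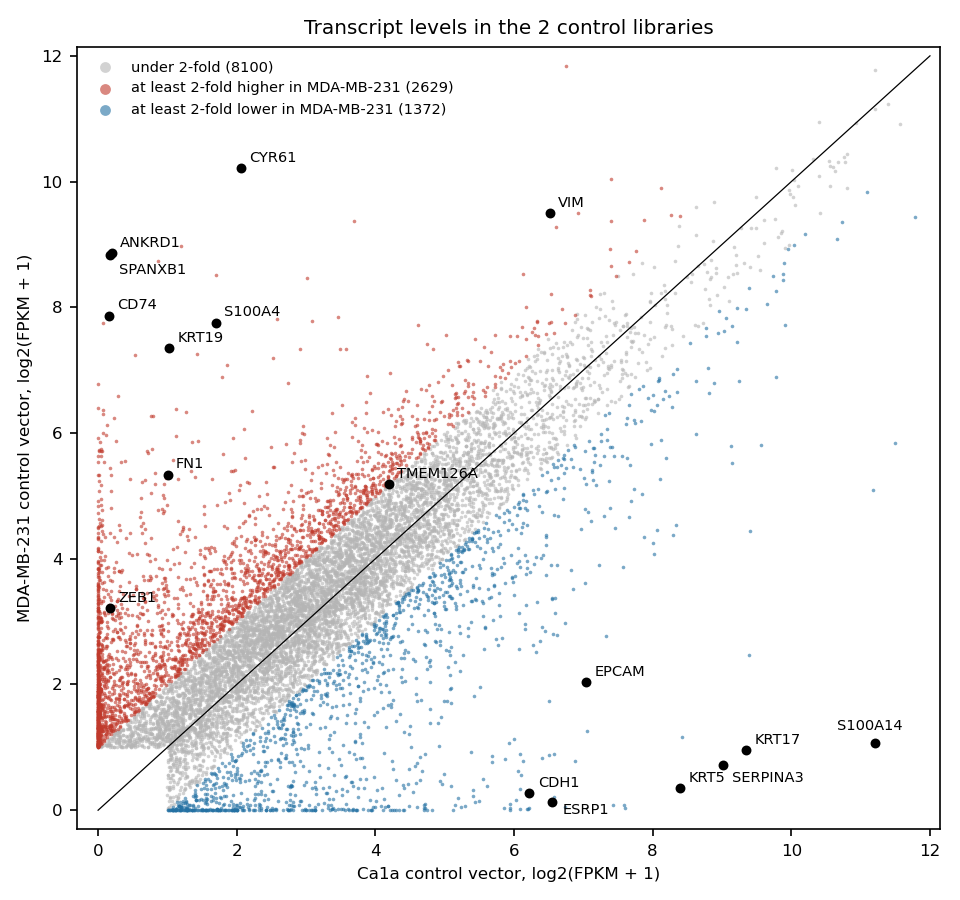
Levels of the 12101 genes in the Ca1a control library (horizontal) and the MDA-MB-231 control library (vertical), each as log2(FPKM + 1), with 1 point per gene. The 2629 genes at least 2-fold higher in MDA-MB-231 lie above the diagonal and the 1372 at least 2-fold lower lie below it, with points along both axes for genes read in 1 line only.

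The treated libraries showed nearly the same difference. Of the 4001 genes called in the control pair, 3982 had the same sign in the pair of treated libraries, where 33.2% of 12132 genes were past 2-fold. In all 4 pairs, 2266 genes (18.7%) were held as higher and 1158 (9.57%) as lower, which is 86.2% and 84.4% of the genes called in each direction. Within a line, between the treated and the control library, 33 of 11546 genes (0.286%) passed 2-fold in MDA-MB-231 and 19 of 10564 (0.180%) in Ca1a. The standard deviation of log2 ratios over the 12101 genes was 1.30 between the control libraries, 0.16 within MDA-MB-231 and 0.17 within Ca1a. Over the same genes the ratios of the 2 pairs had a Pearson r of 0.984 and a Spearman rho of 0.976, given as a description, since both pairs share cell lines, media and gene-specific features of counting.

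**Figure D2:**
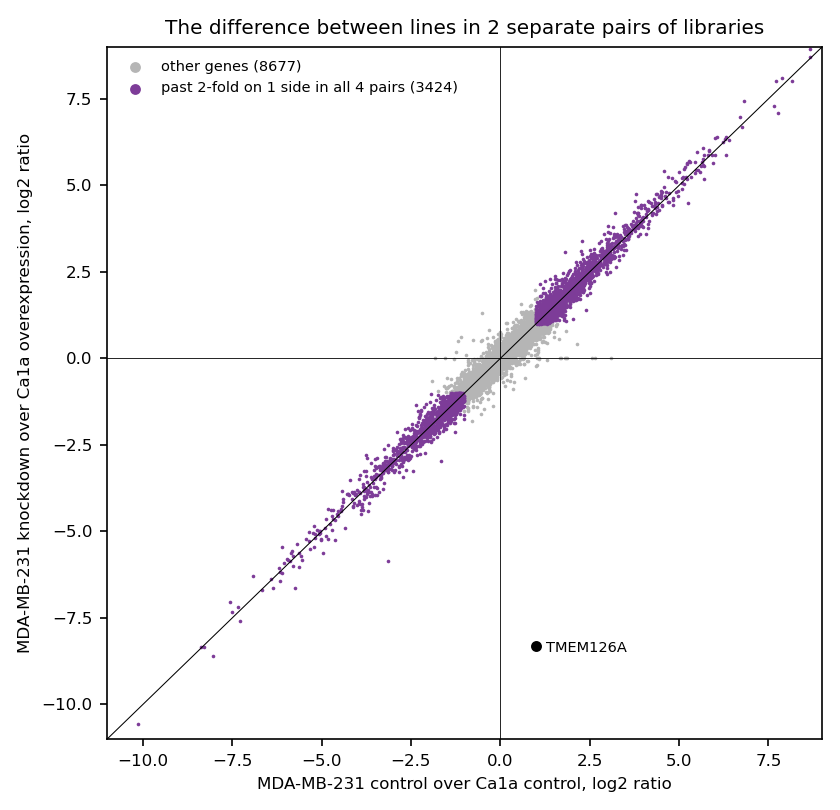
The log2 ratio of MDA-MB-231 over Ca1a for each of the 12101 genes in the control libraries (horizontal) and in the treated libraries (vertical), which are separate libraries. Genes past 2-fold on 1 side in all 4 pairs are in purple. TMEM126A, the gene altered in the treated libraries, lies far off the diagonal, at -8.30 in the treated pair.

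TMEM126A, the gene that the study altered, encodes a mitochondrial inner membrane protein needed to build complex I of the respiratory chain. It stood at 35.5 FPKM in the MDA-MB-231 control and 1.07 FPKM in the knockdown library, and at 17.3 FPKM in the Ca1a control and 651 FPKM in the overexpression library. The control libraries differed by just under 2-fold in FPKM + 1. Its paralog TMEM126B was higher in MDA-MB-231, at 32.9 and 33.2 FPKM against 14.5 and 13.3 FPKM in Ca1a.

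In the text below, the levels of a line are given with the control library first and the treated library second. Folds are ratios of reads, each divided by the total gene reads of its library, between the control libraries, without a pseudocount, with an exact binomial interval at 95% that covers counting error only. A gene without reads in 1 control library has a lower bound, computed against 3 reads in that library. Levels joined by "against" give MDA-MB-231 first. Of the genes whose 4 levels are given below, only EGFR, ACTB and HSPA8 had ranges that overlapped between the lines. Calls named below were held in all 4 pairs except those of MTAP, TXNIP, ATP5E, SLMO2-ATP5E, LOC105376895 and LOC105373309.

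The markers separated the lines, with 1 exception to their usual grouping. The epithelial adhesion gene EPCAM, at 131 and 133 FPKM in Ca1a, was still read in MDA-MB-231, at 3.1 and 2.62 FPKM. The epithelial splicing factor gene ESRP1 stood at 92.6 and 87.2 FPKM in Ca1a and 0.0973 and 0.0668 FPKM in MDA-MB-231, a difference of 899-fold (95% interval 502 to 1801). KRT5, a keratin of basal cells, had 335 and 439.8 FPKM in Ca1a and 0.281 and 0.145 FPKM in MDA-MB-231. These genes separated the lines without overlap, as did VIM, which encodes the mesenchymal filament protein vimentin, at 721 and 708 FPKM in MDA-MB-231 and 90.5 and 74.8 FPKM in Ca1a. KRT19, a keratin of luminal cells, went against the epithelial pattern, with 163 and 220.4 FPKM in MDA-MB-231 and 1.04 and 1.61 FPKM in Ca1a, a difference of 131-fold (95% interval 95.8 to 185). Of 20 markers of immune, endothelial, fat, stromal, smooth muscle, neural, liver, blood and melanocyte cells, 3 reached 1 FPKM in a control library, and 6 were listed at 0 in every library, among them the B cell gene MS4A1, the adipocyte gene ADIPOQ, the neuronal gene RBFOX3, the globin gene HBB and the melanocyte gene MLANA. The marker list summed to 103.5 and 102.2 FPKM in MDA-MB-231 and 52.8 and 51.2 FPKM in Ca1a, with CD68, a lysosomal membrane protein gene also used as a macrophage marker, the highest of them in every library, at 98.6 and 97.6 against 34.9 and 28.9 FPKM, and in Ca1a the smooth muscle actin gene ACTA2 next, at 12.7 and 15.6 FPKM. The cells were cultured lines, and the part of other cells in the results was not tested.

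Epithelial junction genes were mostly lower in MDA-MB-231. Of 38 listed genes 34 passed the FPKM filter, and 29 of these were lower and 1 higher, against 11.3% and 21.7% of all genes. The median log2 ratio was -2.92, and 28 of the 29 were held in all 4 pairs. Through Ca1a alone 14 of the 34 passed, and 1 through MDA-MB-231 alone. The 19 at 1 FPKM or more in both lines had a median of -2.69. The adherens junction gene CDH1 (chromosome 16, 68737225 to 68835548, plus strand, by the GENCODE release 29 annotation of GRCh38), which encodes E-cadherin, had 73.6 and 73.4 FPKM in Ca1a and 0.203 and 0.332 FPKM in MDA-MB-231, a difference of 336-fold (95% interval 240.4 to 486). P-cadherin (CDH3) stood at 0.171 and 0.202 against 41.6 and 39.3 FPKM. RAB25, a small GTPase of epithelial vesicle recycling, had 2897 and 2815 reads in Ca1a and 1 and 0 in MDA-MB-231. The membrane protease gene PRSS8 stood at 0.125 and 0.265 against 64.1 and 61.5 FPKM. MAL2, which serves vesicle transport to the apical membrane, stood at 0.831 and 0.924 against 90.2 and 93.8 FPKM. The polarity gene CRB3 (chromosome 19, 6463777 to 6467221, plus strand) stood at 16.5 and 18.6 FPKM in Ca1a and 0.126 and 0.12 FPKM in MDA-MB-231.

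Desmosome genes were lower to very different degrees. DSG3, a desmoglein of stratified epithelia, had 72.9 and 66.7 FPKM in Ca1a and 0.0129 and 0.0127 FPKM in MDA-MB-231, while its relative DSG2 stood at 24.8 and 23.4 against 64.9 and 63.7 FPKM, a difference of 2.54-fold (95% interval 2.45 to 2.63). DSP, which encodes the plaque protein desmoplakin, was 8.46-fold (95% interval 8.12 to 8.8) lower, at 7.79 and 6.73 FPKM against 66 and 58.4 FPKM. JUP, the gene of plakoglobin, was 4.74-fold lower. Among tight junction genes, CLDN7 (18 and 21.5 FPKM in MDA-MB-231 against 255 and 237 FPKM in Ca1a) and CLDN1 (6.25 and 5.15 against 86.1 and 95.8 FPKM) were lower. CLDN4 did not reach 2-fold, at 85.8 and 102 against 127 and 127 FPKM. CLDN3, a claudin gene, was the 1 member higher in MDA-MB-231, with 34 and 33 reads against 0 and 0. The junction genes thus ranged in MDA-MB-231 from near 0 (CDH1, RAB25, DSG3) to levels close to those of Ca1a (CLDN4). On the other scales, 24 to 31 of the 34 genes were lower.

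Regulators of epithelial identity went the same way, with 13 of 16 lower and 2 higher, and a median of -2.49. Through Ca1a alone 9 of the 16 passed, and 1 through MDA-MB-231 alone. The 6 at 1 FPKM or more in both lines had a median of -1.655. The splicing factor gene ESRP2 stood at 0.875 and 0.847 against 16.4 and 16.2 FPKM, beside ESRP1 above. The grainyhead factor gene GRHL2 stood at 4.39 and 4.88 FPKM in Ca1a and 0.0319 and 0.0124 FPKM in MDA-MB-231. OVOL2, a zinc finger repressor that holds the epithelial state, and FOXA1, a pioneer factor of luminal cells, had no reads in either MDA-MB-231 library and 340 and 859 reads in the Ca1a control, at least 110.0-fold and at least 278-fold more. The basal regulator gene TP63 was 49.8-fold (95% interval 32.8 to 79.9) lower, at 0.0967 and 0.13 FPKM against 5.56 and 4.61 FPKM. Of the ETS factors of epithelia, EHF and SPDEF were the 2 genes higher in MDA-MB-231. EHF had 34.5 and 40.6 FPKM there and 9.94 and 11 FPKM in Ca1a, and SPDEF stood at 7.35 and 12.1 against 0.0303 and 0.0311 FPKM. The related gene ELF3 was lower, at 1.36 and 1.94 against 9.54 and 13.3 FPKM.

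The factors of epithelial to mesenchymal transition differed in both directions. Of 12 listed genes 6 passed the filter, with 2 higher and 3 lower in MDA-MB-231. The filter fixed the side of ZEB1 and ZEB2, the 2 that passed through MDA-MB-231 alone. It also fixed that of the 2 that passed through Ca1a alone, among them TWIST1. The 2 at 1 FPKM or more in both lines had a median of -1.89. ZEB1 (chromosome 10, 31318495 to 31529814, plus strand) had 8.31 and 8.07 FPKM in MDA-MB-231 and 0.132 and 0.116 FPKM in Ca1a, a difference of 65.5-fold (95% interval 46.5 to 95.4). ZEB2 was 21.1-fold (95% interval 14.4 to 32.4) higher, at 1.54 and 1.38 against 0.0708 and 0.0561 FPKM. In contrast SNAI2, which encodes Slug, was higher in Ca1a, at 12.2 and 13.1 against 63.8 and 39.4 FPKM. TWIST1 was read in Ca1a, at 3.98 and 3.28 FPKM, and had 0 reads in both MDA-MB-231 libraries. SNAI1, the gene of Snail, was the 1 gene of the 6 not called, at 0.853 and 0.464 against 1.7 and 1.27 FPKM. In all 4 pairs the ZEB genes and SNAI2 or TWIST1 took opposite sides between the lines. Of these genes, the filter left the side in the control pair open only for SNAI2.

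Because ZEB and SNAI proteins bind the E-box CACCTG, the promoters of the junction genes were read for it. RefSeq promoters (GRCh38.p14, 250 bases before to 50 after the gene start, 300 bases in all) were available for 9572 of the 12101 genes. CACCTG or its reverse complement CAGGTG lay in 20.6% of all 27305 promoters of the table and in 18.3% of those of the compared genes. The share was 28.2% among genes called lower in MDA-MB-231 (285 of 1012), 16.5% among genes called higher and 17.3% among genes not called. Of the epithelial junction genes called lower 15 had a promoter in the table, and 5 of those (33.3%) held the motif. CDH1 and EPCAM had no promoter in the table and were not searched. Among all junction genes passing the filter 6 of 17 promoters held it, and among the epithelial regulators called lower 2 of 7. Base composition and CpG content were not matched between these sets. The 4 promoters with at least 2 matches are shown, as they carry the densest matches of the list, with every CAGGTG or CACCTG in capitals on the gene's strand, 5′ to 3′. CRB3 lies on chr19:6464021-6464320 (plus strand), DSG2 on chr18:31497927-31498226 (plus), DSP on chr6:7541421-7541720 (plus) and RAB25 on chr1:156060910-156061209 (plus).
CRB3: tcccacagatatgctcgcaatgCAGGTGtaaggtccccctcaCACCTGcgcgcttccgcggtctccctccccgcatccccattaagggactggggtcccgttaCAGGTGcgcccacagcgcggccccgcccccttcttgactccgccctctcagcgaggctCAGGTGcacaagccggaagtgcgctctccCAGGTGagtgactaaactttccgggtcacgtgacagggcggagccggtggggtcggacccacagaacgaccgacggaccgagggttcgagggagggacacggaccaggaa
DSG2: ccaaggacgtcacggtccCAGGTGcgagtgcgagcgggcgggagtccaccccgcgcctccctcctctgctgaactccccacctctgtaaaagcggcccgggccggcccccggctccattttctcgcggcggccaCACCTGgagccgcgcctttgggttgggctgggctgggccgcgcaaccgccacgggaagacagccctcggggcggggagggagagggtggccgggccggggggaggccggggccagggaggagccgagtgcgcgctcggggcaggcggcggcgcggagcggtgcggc
DSP: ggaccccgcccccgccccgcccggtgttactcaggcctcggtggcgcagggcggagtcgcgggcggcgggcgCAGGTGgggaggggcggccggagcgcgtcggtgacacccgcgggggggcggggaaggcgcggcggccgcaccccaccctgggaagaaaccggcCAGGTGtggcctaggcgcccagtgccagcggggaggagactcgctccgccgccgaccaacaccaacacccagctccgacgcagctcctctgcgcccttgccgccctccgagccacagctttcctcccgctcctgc
RAB25: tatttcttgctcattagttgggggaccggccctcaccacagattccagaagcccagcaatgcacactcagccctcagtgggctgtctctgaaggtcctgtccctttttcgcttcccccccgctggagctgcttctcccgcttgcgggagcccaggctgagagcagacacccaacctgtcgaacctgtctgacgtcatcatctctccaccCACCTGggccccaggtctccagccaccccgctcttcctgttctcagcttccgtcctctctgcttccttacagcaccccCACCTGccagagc
CRB3 held 5 matches and the other 3 promoters 2 each. DSG2, with 2 matches, was 2.54-fold lower in MDA-MB-231, while RAB25, also with 2, had 1 read in that control library. These 4 promoters were chosen for their matches, and a link between matches and differences was not tested. A match is a stretch of letters and no evidence of binding. The grainyhead motif AACCGGTT, which reads the same on both strands, lay in 0.117% of all promoters and in none of the 15 promoters of the junction genes called lower. For so rare a motif, a lack of matches in 15 promoters was likely beforehand and tells nothing about these genes.

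Basal and squamous genes were lower in MDA-MB-231 in nearly every case. Of 33 listed genes 24 passed the filter, 22 of them lower and 1 higher, with a median of -3.58. Through Ca1a alone 14 of the 24 passed, and 1 through MDA-MB-231 alone. The 9 at 1 FPKM or more in both lines had a median of -2.89. KRT17, a basal keratin gene, had 650.4 and 628 FPKM in Ca1a and 0.946 and 0.933 FPKM in MDA-MB-231. KRT6B, a keratin gene of stressed epidermis, stood at 0.0648 and 0.0313 against 172 and 149 FPKM, and KRT16 had 5 reads in the MDA-MB-231 control and 1932 in the Ca1a control. KRT14, the usual partner of KRT5, was nearly silent in Ca1a as well, at 0.0451 and 0.202 FPKM. SERPINB5, which encodes maspin, was 6126-fold (95% interval 2096 to 29710.0) lower in MDA-MB-231, at 0.0247 and 0.121 against 192 and 148 FPKM. FGFBP1, a carrier of fibroblast growth factors, stood at 94 and 118 FPKM in Ca1a and 0.157 and 0.203 FPKM in MDA-MB-231. S100A2 and the 14-3-3 sigma gene SFN were still read in MDA-MB-231. S100A2 stood at 33 and 34 against 2327 and 2544 FPKM and SFN at 44.8 and 44.9 against 566 and 493 FPKM. Chains of laminin 332, the basement membrane protein that anchors basal cells, were also read in both lines. LAMB3 had 118 and 127 FPKM in MDA-MB-231 and 880.1 and 555 FPKM in Ca1a, and LAMA3 was 6.76-fold lower. The plasminogen activator inhibitor gene SERPINB2 was the exception, at 8.5 and 7.72 FPKM in MDA-MB-231 and 0.0997 and 0.128 FPKM in Ca1a.

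Over the keratin family 14 genes passed the filter, with 10 lower and 2 higher in MDA-MB-231. The pair of simple epithelia was read in both lines: KRT8 at 112 and 128 FPKM in MDA-MB-231 and 393 and 511 FPKM in Ca1a, and KRT18 at 110.2 and 120.4 against 469.7 and 501 FPKM. KRT7 had 62.6 and 76.9 FPKM against 394 and 426 FPKM. KRT15, a keratin of basal progenitors that is nevertheless counted in the luminal list below, showed a much larger gap, at 1.23 and 1.3 FPKM against 344 and 443 FPKM. KRT80 joined KRT19 on the other side, at 62.2 and 79.6 FPKM in MDA-MB-231 and 6.82 and 10.2 FPKM in Ca1a. Of the luminal list 15 of 25 genes passed the filter, with 9 lower and 3 higher, and the higher ones were KRT19, the mucin gene MUC1 (5.15 and 7.44 FPKM against 0.336 and 0.678 FPKM) and TFF1, the trefoil factor gene, with 10 reads in the MDA-MB-231 control and 0 in the Ca1a control. ERBB2, the HER2 gene, was among the 3 not called, at 14.7 and 14.9 against 15.8 and 17.9 FPKM. KRT6A and KRT6B, KRT81 and KRT86, and genes with processed pseudogenes such as KRT8 and KRT18 have near-identical copies, so reads may be split between them.

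**Figure D3:**
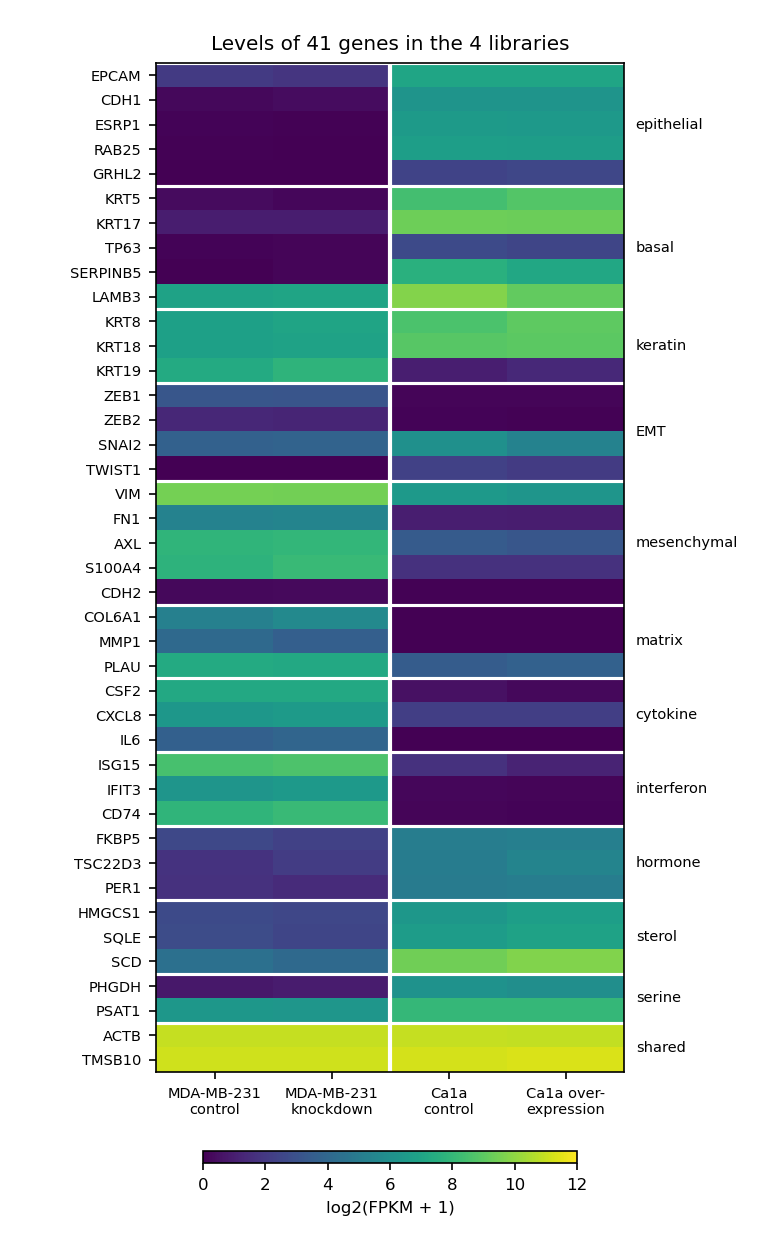
Levels of selected genes of the groups described as log2(FPKM + 1) (colour) in the 4 libraries (columns), with 1 row per gene and the groups named at the right. The 2 libraries of a line look alike in every row, while the columns of MDA-MB-231 (left) and Ca1a (right) differ for most groups, and ACTB and TMSB10 at the bottom, chosen for a small ratio, are alike in all 4.

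Mesenchymal genes that passed the filter, 15 of the 25 in the table, were higher in 10 cases and lower in 2, with a median of 2.07. For 3 of the 15 the filter fixed the side, since they passed through MDA-MB-231 alone, and 0 passed through Ca1a alone. The 12 at 1 FPKM or more in both lines had a median of 1.28. FN1, which encodes fibronectin, was 40.4-fold (95% interval 36.4 to 45.1) higher. S100A4, a calcium-binding protein gene tied to metastasis, was 69-fold (95% interval 53.1 to 91.2) higher, at 215 and 276 FPKM against 2.24 and 2.28 FPKM. The receptor kinase gene AXL stood at 230.0 and 244 against 10.0 and 8.15 FPKM. CDH11, a mesenchymal cadherin, had 1603 and 2178 reads in MDA-MB-231 and 0 and 1 in Ca1a. The G protein subunit gene GNG11 had 77.9 and 79 FPKM against 0.0537 and 0.0527 FPKM. Other members were low in MDA-MB-231 as well, which had 0.185 and 0.247 FPKM of the N-cadherin gene CDH2 and 0.563 and 0.529 FPKM of SPARC, the gene of a matrix glycoprotein. ACTA2, which encodes smooth muscle actin, was higher in Ca1a, at 1.24 and 1.28 against 12.7 and 15.6 FPKM, and so was the methyltransferase gene NNMT, at 10.5 and 8.14 against 26.3 and 26.9 FPKM. The hyaluronan receptor gene CD44 was under 2-fold, at 75.3 and 79.8 against 46.3 and 42.8 FPKM.

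Collagen genes showed an exchange of chains. Of 18 genes passing the filter 10 were higher in MDA-MB-231 and 3 lower, with a median of 1.30. Through MDA-MB-231 alone 8 of the 18 passed, and 2 through Ca1a alone. The 8 at 1 FPKM or more in both lines had a median of 0.90. Both main chains of collagen VI were read almost only in MDA-MB-231, COL6A1 at 36.6 and 49.2 against 0.00927 and 0.00945 FPKM and COL6A2, with no reads in Ca1a, at 21.5 and 23.8 FPKM, at least 916-fold higher. COL5A1, a chain of the fibrillar collagen V, had 19.2 and 22.2 FPKM against 0 and 0.00457 FPKM. The transmembrane collagen gene COL13A1 was 65.4-fold (95% interval 52.8 to 82) higher, and COL8A1, a short-chain collagen, 33.1-fold (95% interval 27.2 to 40.8) higher. On the other side stood COL17A1, the hemidesmosome collagen, at 76.4 and 80.9 FPKM in Ca1a and 5.16 and 5.19 FPKM in MDA-MB-231, and the basement membrane chains COL4A5 (1.78 and 2.03 against 9.88 and 9.67 FPKM) and COL4A6 (0.107 and 0.122 against 2.09 and 1.91 FPKM). COL1A1, the gene of the main interstitial collagen chain, was low in both lines, at 1.73 and 1.79 against 0.912 and 0.813 FPKM.

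Integrin genes differed in both directions. Of 13 genes passing the filter 3 were higher and 5 lower, against 21.7% and 11.3% of all genes. The share higher was near that of all genes, and the median of 0.12 changed sign with the scale. ITGB4, the hemidesmosome integrin, had 233 and 230.4 FPKM in Ca1a and 19.4 and 23.8 FPKM in MDA-MB-231, and its partner ITGA6 66 and 69.8 against 162 and 163 FPKM. ITGB6, an epithelial receptor that releases active TGF-beta, was 228-fold (95% interval 147 to 373) lower in MDA-MB-231, and ITGB8 163-fold (95% interval 96.9 to 299) lower. The leukocyte integrin gene ITGB2 (12 and 13.2 against 0.696 and 1.1 FPKM), the collagen receptor gene ITGA1 (6.89 and 8.1 against 1.01 and 0.93 FPKM) and ITGB3 (2.13 and 2.2 against 0.13 and 0.131 FPKM) were higher. ITGB1, the common beta chain, did not differ by 2-fold, at 214 and 259 against 197 and 183 FPKM.

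Genes of matrix breakdown and its inhibitors were higher in MDA-MB-231, 16 of 21 passing the filter, with 1 lower and a median of 1.75, and all 17 of these were held. Members of the urokinase system were higher. The protease gene PLAU had 162 and 153 FPKM against 10.3 and 12.1 FPKM, and its receptor gene PLAUR 34.8 and 37.9 against 12 and 9.97 FPKM. MMP1, the interstitial collagenase, had 1045 and 735 reads in MDA-MB-231 and 2 and 1 in Ca1a. The membrane protease gene MMP14 was 5.87-fold (95% interval 5.64 to 6.11) higher. Genes of metalloprotease inhibitors were higher too, TIMP2 at 146 and 157 FPKM against 4.73 and 5.88 FPKM and TIMP1 at 92.2 and 95.7 against 20.3 and 16.7 FPKM. ADAM8 and ADAM12, both membrane proteases, differed in opposite directions. ADAM8 stood at 46.5 and 56.2 FPKM in MDA-MB-231 and 1.11 and 1.13 FPKM in Ca1a, and ADAM12 at 0.31 and 0.275 against 5.71 and 7.04 FPKM.

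**Figure D4:**
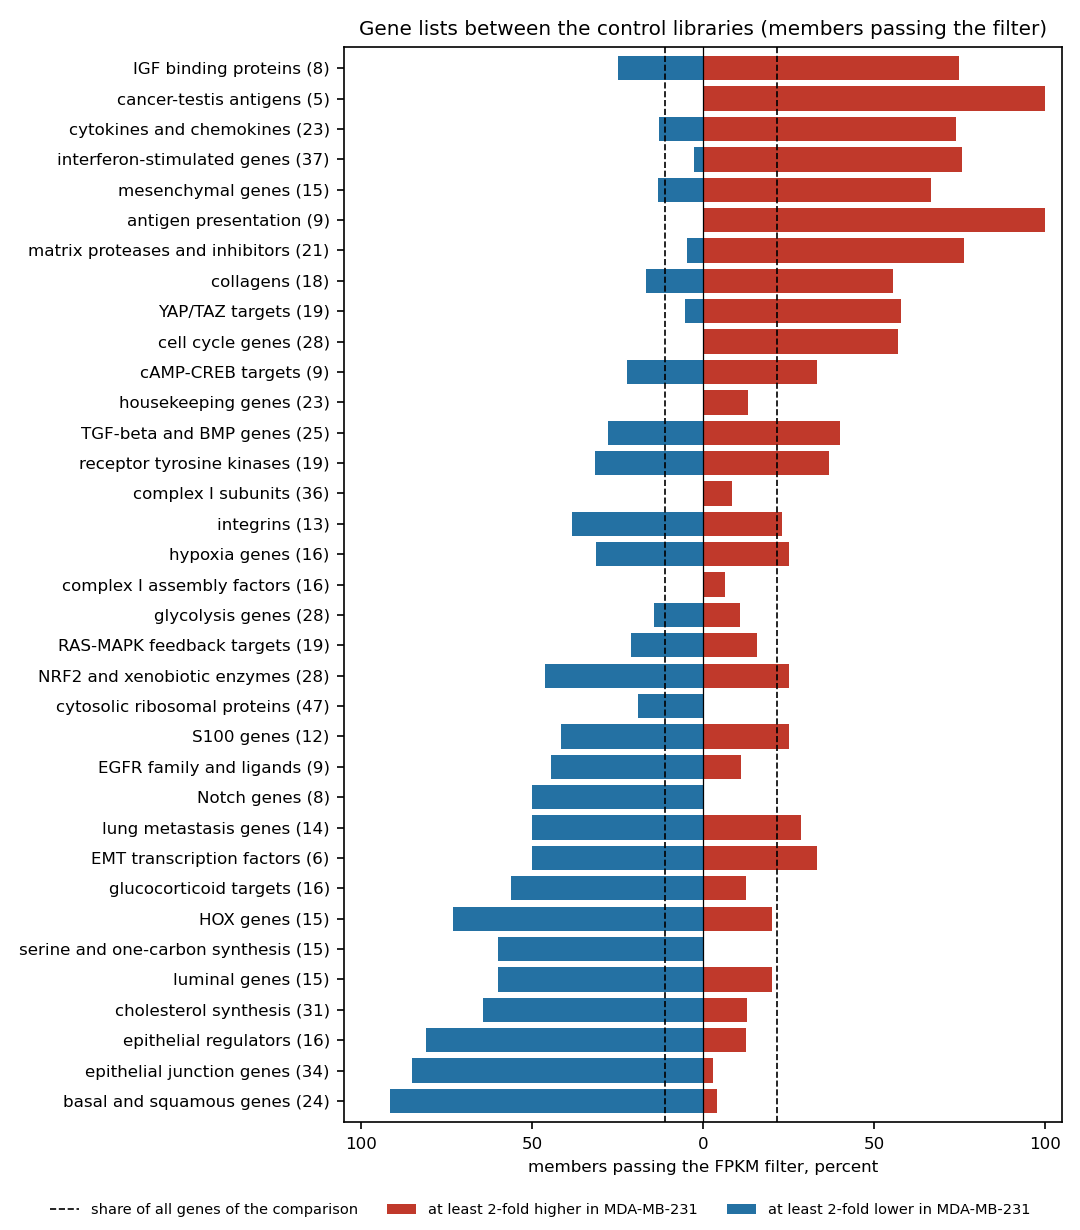
Share of the members passing the FPKM filter that were at least 2-fold higher (red, to the right) or lower (blue, to the left) in the MDA-MB-231 control, in percent, for gene lists ordered by their median log2 ratio, with the number of members passing in brackets. Dashed lines mark the shares over all 12101 genes, 21.7% higher and 11.3% lower.

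Among the EGFR family and its ligands 9 genes passed the filter, with 1 higher and 4 lower, against 21.7% and 11.3% of all genes. The ligand gene EPGN (epigen) was read almost only in Ca1a, at 0.0303 and 0.0149 against 60.2 and 57.3 FPKM, and EREG (epiregulin) and AREG (amphiregulin) were 8.81-fold (95% interval 8.13 to 9.56) and 7.4-fold (95% interval 7.0 to 7.83) lower in MDA-MB-231. NRG1, which encodes the ERBB3 and ERBB4 ligand neuregulin, was higher there, at 1.99 and 2.13 against 0.249 and 0.165 FPKM. The receptor gene EGFR itself stood at 39.2 and 35.3 against 38 and 32.4 FPKM. Feedback targets of RAS and MAPK signalling were higher in 3 and lower in 4 of 19 cases, with a median of -0.13 that changed sign with the scale. DUSP6, the ERK phosphatase gene, stood at 62.1 and 72.4 against 151 and 156 FPKM, the early response gene EGR1 at 5.84 and 4.41 against 39.3 and 27.2 FPKM, and the transcription factor gene ETV1 at 6.84 and 8.09 against 0.246 and 0.196 FPKM. The feedback inhibitor gene SPRY2 (18.3 and 21.4 against 15.8 and 14.7 FPKM) was not called.

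Receptor tyrosine kinase genes were higher in 7 and lower in 6 of 19 cases, against 21.7% and 11.3% of all genes. Their median of 0.36 was below 0 when centred on housekeeping genes. Of the 19, 5 passed the filter through MDA-MB-231 alone and 2 through Ca1a alone. The 12 at 1 FPKM or more in both lines had a median of -0.02. AXL and its relative MERTK (4.41 and 4.84 FPKM against 0.00839 and 0.025 FPKM) and FGFR1 (18 and 18.1 against 0.599 and 0.395 FPKM) were higher in MDA-MB-231. The RON receptor gene MST1R (5.5 and 6.24 against 28.1 and 25.6 FPKM), the ephrin receptor genes EPHA1 (0.00962 and 0 against 4.89 and 4.38 FPKM) and EPHB3, and ERBB3 were lower. Of the binding proteins of insulin-like growth factors and related genes, 6 of 8 were higher and 2 lower, with a median of 3.70. Through MDA-MB-231 alone 5 of the 8 passed the filter, and 1 through Ca1a alone. IGFBP4 reached 426 and 526 FPKM in MDA-MB-231 against 0.816 and 0.923 FPKM in Ca1a, IGFBP6 135 and 169.8 against 2.64 and 2.49 FPKM, and IGFBP7 108 and 106 against 0 and 0.0359 FPKM. IGFBP2 was lower, at 0.0877 and 0 against 8.54 and 8.01 FPKM. The insulin receptor substrate genes went apart, with IRS1 158-fold (95% interval 110.1 to 237) higher in MDA-MB-231 and IRS2 2.8-fold (95% interval 2.62 to 2.99) lower. The Ca1a medium held insulin, and its part was not tested.

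Targets of the glucocorticoid receptor were lower in MDA-MB-231, whose labelled medium lists no hydrocortisone, in 9 of 16 cases, and 2 were higher, with a median of -1.29. FKBP5, a chaperone gene that the receptor raises, stood at 5.08 and 4.02 against 33.2 and 34.7 FPKM. TSC22D3, the gene of the leucine zipper protein GILZ, stood at 2.35 and 3.32 against 31.7 and 41 FPKM, and the clock gene PER1 at 2.32 and 1.79 against 30.8 and 32.6 FPKM. ZBTB16 had 179 and 166 reads in Ca1a and none in MDA-MB-231. The receptor gene NR3C1 differed by under 2-fold, at 11.7 and 11.7 against 16.7 and 14.6 FPKM. SGK1, a kinase gene the receptor also raises, was higher in MDA-MB-231, at 6.07 and 6.41 FPKM against 0.875 and 0.906 FPKM, as was the metallothionein gene MT1X. Targets of cAMP signalling, which cholera toxin in the Ca1a medium raises, had 3 higher and 2 lower of 9, against 21.7% and 11.3% of all genes. The early response gene FOS was 45.3-fold (95% interval 33.5 to 62.8) lower in MDA-MB-231 and the hormone gene STC1 1093-fold (95% interval 374 to 5304) higher. Whether the medium or the line set these levels cannot be told apart here.

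Cholesterol and fatty acid synthesis genes were lower in MDA-MB-231 in 20 of 31 cases and higher in 4, with a median of -1.77 in the control pair and -2.14 in the treated pair. The 20 lower genes were all held. In the mevalonate pathway, the synthase gene HMGCS1 stood at 5.47 and 4.83 against 81.6 and 103 FPKM and the decarboxylase gene MVD at 7.8 and 6.82 against 95.3 and 119 FPKM. In the sterol branch, SQLE was 16.2-fold (95% interval 14.8 to 17.7) lower, MSMO1 14.8-fold (95% interval 14 to 15.7) lower and FDFT1 14.2-fold (95% interval 13.5 to 14.9) lower. SCD, the desaturase of fatty acids, stood at 678 and 856 FPKM in Ca1a and 20.7 and 16.2 FPKM in MDA-MB-231. The regulator gene SREBF2 was lower too, at 14.6 and 9.76 against 66.5 and 70.0 FPKM. ACAT2, the cytosolic thiolase at the head of the pathway, was the reverse, at 26.5 and 24.1 FPKM in MDA-MB-231 and 0.0426 and 0.0851 FPKM in Ca1a. Serum, a source of lipids, differed between the media, and its part was not tested.

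Serine, one-carbon and amino acid synthesis genes were lower in 9 of 15 cases and higher in none, with a median of -1.33. PHGDH, the first enzyme of serine synthesis, had 68.9 and 59.8 FPKM in Ca1a and 0.722 and 0.866 FPKM in MDA-MB-231, a difference of 91-fold (95% interval 71.9 to 117). The next enzyme, PSAT1, stood at 81.7 and 76.8 against 251 and 254 FPKM, and the last, PSPH, stood at 11.9 and 9.94 against 12.7 and 12.5 FPKM. The difference was largest at the first of the 3 steps and smallest at the last. MTHFD2, a folate enzyme gene of mitochondria, was 7.91-fold (95% interval 7.51 to 8.34) lower, and ASS1, the argininosuccinate synthase gene, 10.8-fold (95% interval 9.88 to 11.8) lower. Glycolysis genes as a group lay near 0, with 3 of 28 higher, 4 lower and a median of -0.08 that changed sign with the scale. The enolase gene ENO2 stood at 57.4 and 55.5 against 0.197 and 0.20 FPKM, and ALDOC, an aldolase gene, at 1.62 and 1.59 against 26.6 and 36.7 FPKM. GALK1, the kinase that starts the use of galactose, the sugar of L15 medium, was 7.66-fold (95% interval 6.22 to 9.53) higher in MDA-MB-231. The next enzyme, GALT (15.4 and 16.9 against 8.51 and 7.54 FPKM), was not called. TXNIP and ARRDC4, arrestin genes raised by glucose, were lower in MDA-MB-231, at 48.6 and 69.5 against 187 and 110.4 FPKM and 0.763 and 0.787 against 10.1 and 6.36 FPKM.

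Hypoxia genes had 4 higher and 5 lower of 16, against 21.7% and 11.3% of all genes, with a median of 0.05 that changed sign with the scale. DDIT4, a stress-induced inhibitor of mTOR, was among the most abundant transcripts of Ca1a, at 2876 and 2926 FPKM, and stood at 56.6 and 44.2 FPKM in MDA-MB-231. ADM, the adrenomedullin gene, was 6.76-fold (95% interval 5.44 to 8.48) higher in MDA-MB-231, and CA12 37.7-fold (95% interval 21.4 to 73.5) higher. The list of NRF2 targets and xenobiotic enzymes had 7 higher and 13 lower of 28, with a median of -0.31 that was above 0 when centred on ribosomal protein genes. The aldo-keto reductase genes AKR1C2 (0.0357 and 0.0613 against 16.6 and 18.3 FPKM) and AKR1C1 (0.573 and 0.53 against 21.3 and 17.8 FPKM), which have near-identical relatives, and GCLC, an enzyme gene of glutathione synthesis, were lower. CYP1B1, a target of the aryl hydrocarbon receptor, was 49-fold (95% interval 43.7 to 55.2) higher, at 117 and 124 FPKM against 2.47 and 2.72 FPKM, and the glutathione transferase genes GSTM1 and GSTM3 had 260 and 1379 reads in the MDA-MB-231 control and none in either Ca1a library.

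Cytokine and chemokine genes were higher in MDA-MB-231 in 17 of 23 cases and lower in 3, with a median of 2.28. Through MDA-MB-231 alone 9 of the 23 passed the filter, and 1 through Ca1a alone. The 13 at 1 FPKM or more in both lines had a median of 1.11. All 17 were held, but only 1 of the 3 lower ones. Of the colony-stimulating factor genes, CSF2 stood at 151 and 148 against 0.446 and 0.191 FPKM, CSF1 at 76.4 and 107 against 0.692 and 0.719 FPKM, and CSF3 had 1215 and 1395 reads in MDA-MB-231 and none in Ca1a, at least 417-fold higher. IL6 had 2896 and 3528 reads in MDA-MB-231 and 2 and 4 in Ca1a. The neutrophil chemokine gene CXCL8 was 22.2-fold (95% interval 19.1 to 26) higher and CXCL1 19.4-fold (95% interval 15.7 to 24.3) higher. IL18, an epithelial cytokine gene of the IL1 family, was the 1 held as lower, at 13.2 and 14.1 against 112 and 119 FPKM. The acute phase gene SAA1 followed the cytokines, at 504 and 478 FPKM against 1.29 and 2.47 FPKM, while SERPINA3, another acute phase gene, was at 0.649 and 0.862 FPKM against 519 and 607 FPKM.

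Interferon-stimulated genes were higher in 28 of 37 cases and lower in 1, with a median of 2.20, and on the other scales 23 to 32 were higher. However, 21 of the 37 passed the filter through MDA-MB-231 alone. The 16 at 1 FPKM or more in both lines had a median of 0.99. ISG15, a ubiquitin-like modifier gene, had 366 and 399 FPKM in MDA-MB-231 and 2.26 and 1.32 FPKM in Ca1a. IFIT3 stood at 74.4 and 90.4 against 0.169 and 0.107 FPKM, and IFIT1 had 2247 and 3210 reads in MDA-MB-231 and 0 and 5 in Ca1a. The RNA sensor gene DDX58 (RIG-I) was 8.4-fold (95% interval 7.45 to 9.51) higher. The signalling gene IRF9 (8.64 and 9.81 against 4.62 and 3.81 FPKM) was under 2-fold, while STAT2 was 6.43-fold (95% interval 5.78 to 7.17) higher. TRIM22, an antiviral ligase gene, was the 1 gene lower, at 1.63 and 2.24 FPKM against 13.3 and 18.1 FPKM.

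All 9 antigen presentation genes that passed the filter, of 20 listed, were higher in MDA-MB-231. For 6 of them the filter fixed this side, since they passed through MDA-MB-231 alone. The 3 at 1 FPKM or more in both lines had a median of 1.63. CD74, the invariant chain of class II molecules, had 233 and 283 FPKM in MDA-MB-231 and 0.116 and 0.0931 FPKM in Ca1a. Its regulator CIITA had 689 and 864 reads in MDA-MB-231 and 0 and 1 in Ca1a. The class I gene HLA-B stood at 24.4 and 28.2 against 0.521 and 0.443 FPKM and its partner B2M at 156 and 201 against 49.7 and 60.1 FPKM. CD274, the gene of the checkpoint ligand PD-L1, was 6.52-fold (95% interval 5.59 to 7.64) higher. A further 8 members, among them HLA-E, HLA-DRA, TAP1 and PSMB9, were listed at 0 in all 4 libraries. So were TUBB, FLOT1, BAG6 and CSNK2B, genes of the same stretch of chromosome 6 that most cells transcribe, so a 0 there is no measure of absence, and the values of the HLA genes are uncertain.

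Genes of the TGF-beta and BMP pathways were higher in 10 and lower in 7 of 25 cases, with a median of 0.38 that changed sign with the scale. The ligand genes TGFB2 (25.7 and 27.4 against 0.529 and 0.903 FPKM) and TGFB1 (28 and 27.2 against 2.28 and 1.04 FPKM) and both receptor genes TGFBR1 and TGFBR2 (2.88-fold and 2.6-fold) were higher in MDA-MB-231. BMP4 was read almost only there, at 23.5 and 32.2 FPKM against 0.035 and 0.0703 FPKM. INHBA, an activin subunit gene, and ID1, a BMP target, were lower, at 6.57 and 6.5 against 83.2 and 66 FPKM and 48.8 and 71 against 172 and 163 FPKM.

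Targets of the coactivators YAP and TAZ were higher in 11 of 19 cases and lower in 1, with a median of 1.27, and 9 of the 11 were held. ANKRD1 and CYR61 were among the 15 largest differences of the comparison. ANKRD1, an ankyrin repeat protein gene, had 463 and 458 FPKM in MDA-MB-231 and 0.149 and 0.0933 FPKM in Ca1a. CYR61, a matricellular protein gene, had 1188 and 1111 against 3.18 and 3.32 FPKM, and its relative CTGF 82.6 and 82.1 against 1.19 and 2.69 FPKM. Of the coactivator genes, YAP1 was not called, at 39.6 and 39.5 against 26.2 and 25.7 FPKM, and WWTR1, the gene of TAZ, was lower in MDA-MB-231, at 13.6 and 14.9 against 55 and 49.4 FPKM.

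Notch genes were lower in 4 of 8 cases and higher in none. NOTCH3 had 21.2 and 20.4 FPKM in Ca1a and 0.336 and 0.389 FPKM in MDA-MB-231, the ligand gene JAG2 stood at 2.33 and 2.88 against 23.1 and 23.5 FPKM, and the target gene HES1 at 3.13 and 3.23 against 26.5 and 21.3 FPKM. NOTCH2 was not called, at 33.9 and 32.4 against 20.4 and 18.7 FPKM. The S100 family, small calcium-binding proteins, had 3 higher and 5 lower of 12. S100A14 (chromosome 1, 153614255 to 153616986, minus strand) showed the largest lower ratio of the comparison among held genes, -10.13, at 1.1 and 0.536 FPKM in MDA-MB-231 and 2360.3 and 2335 FPKM in Ca1a. S100P was 146-fold (95% interval 106 to 206) lower. S100A6 and S100A10 stayed under 2-fold, at 3491 and 4203 against 2363 and 2465 FPKM and 314 and 328 against 429 and 435 FPKM.

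A list of lung metastasis genes, chosen in earlier work on derivatives of MDA-MB-231, was not higher in this line as a whole, with 4 of 14 higher and 7 lower and a median of -0.95. MMP1, CXCL1, PTGS2 and TNC were the higher ones. PTGS2, the cyclooxygenase 2 gene, stood at 2.79 and 2.87 against 0.0273 and 0.0176 FPKM. IL13RA2, a decoy receptor gene, stood at 0 and 0.0258 against 14.3 and 9.69 FPKM, and the actin-bundling gene FSCN1 at 21 and 27.3 against 267 and 228 FPKM.

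At chromosome band 9p21 (GRCh38), the inhibitor genes CDKN2A and CDKN2B were listed at 0 in all 4 libraries. MTAP (chromosome 9, 21802543 to 21937651, plus strand) had 245 and 193 reads in Ca1a and none in MDA-MB-231, at least 79.3-fold lower there, and DMRTA1 (chromosome 9, 22446841 to 22455740, plus strand), on the other side of the locus, had 175 and 163 reads in Ca1a and none in MDA-MB-231. CDKN2C, a related inhibitor gene on another chromosome, was 13.1-fold (95% interval 9.88 to 17.8) higher in MDA-MB-231.

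Cell cycle genes were higher in MDA-MB-231 in 16 of 28 cases and lower in none, with a median of 1.07, but the count depended on the scale, from 8 with ratios centred on housekeeping genes to 20 with ribosomal protein genes. E2F1, a factor of entry into S phase, stood at 38.5 and 35.5 against 1.64 and 2.03 FPKM, the cyclin gene CCNE2 at 9.27 and 9.41 against 0.219 and 0.104 FPKM, and the replication helicase gene MCM3 at 63.2 and 60.7 against 6.68 and 7.45 FPKM. All 6 of the helicase genes MCM2 to MCM7 passed 2-fold, from 2.62-fold for MCM7 to 9.34-fold for MCM3. The 12 genes not called included most of those of mitosis. The proliferation marker gene MKI67 stood at 26 and 26.5 against 24.4 and 24 FPKM, the mitotic activator gene CDC20 at 70.5 and 69.3 against 67.9 and 66.9 FPKM, and the cyclin gene CCNB1 at 81.5 and 90.0 against 74.6 and 71.1 FPKM.

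Of 23 housekeeping genes 3 were higher and none lower, with a median of 0.44, the higher ones among them the transferrin receptor gene TFRC, at 74.2 and 76.1 FPKM against 12 and 14.5 FPKM. Of 47 cytosolic ribosomal protein genes none was higher and 9 were lower, with a median of -0.47. RPS6, a protein of the small ribosomal subunit, was among them, at 692 and 723 FPKM in MDA-MB-231 and 3518 and 3508 FPKM in Ca1a. Medians of housekeeping and ribosomal protein genes thus lay on opposite sides of 0, with that of all genes between them. Few nuclear genes of complex I were called. Of 36 subunit genes 3 were higher and none lower, with a median of 0.27 (-0.17 with ratios centred on housekeeping genes), and 1 of 16 assembly factor genes, TMEM126B, was higher. The median of the assembly factors, 0.01, changed sign on 4 other scales and in the treated pair. The most abundant of the genes chosen for a log2 ratio under 0.2 in size, a likeness that the choice itself fixes, included the actin gene ACTB at 1960.5 and 1951 against 1953 and 1916 FPKM, the thymosin gene TMSB10 at 2281 and 2277 against 2368 and 2566 FPKM, and the chaperone gene HSPA8 at 616 and 698 against 621 and 658 FPKM.

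Of 39 HOX genes, which give cells their position along the body, 15 passed the filter, with 11 lower and 3 higher in MDA-MB-231. The filter fixed the side of most, since 12 passed through Ca1a alone and 2 through MDA-MB-231 alone. In the HOXA cluster, HOXA5 had 218 and 169 reads in Ca1a and 0 and 0 in MDA-MB-231, and HOXA3 329 and 265 against 0 and 0. The noncoding transcript HOTAIRM1 of the same cluster had 900 and 650 reads in Ca1a and 0 and 0 in MDA-MB-231. HOXB9 stood on the other side, at 9.38 and 8.66 FPKM in MDA-MB-231 and 1.13 and 0.669 FPKM in Ca1a, and HOXD1 and HOXD4 had reads only in MDA-MB-231. Of 34 cancer-testis antigen genes in the table, which are normally silent outside the germ line, 20 were listed at 0 in every library. The 5 that passed the filter were all called higher in MDA-MB-231. They passed through that line alone, so the filter fixed their side. SPANXB1 (chromosome X, 141002591 to 141003706, plus strand) reached 456 and 487 FPKM against 0.13 and 0 FPKM, with near-identical copies close by, and CT83 12.2 and 12.1 against 0.106 and 0.104 FPKM.

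Host transcripts of several microRNAs differed. The RNA-seq measured the host transcript, not the mature microRNA. The mature sequences of the main products are shown (RefSeq, GRCh38.p14), 5′ to 3′, with the seed, bases 2 to 8, in capitals, because the seed sets which transcripts a microRNA can bind.
hsa-miR-205-5p: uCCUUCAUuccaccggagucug
hsa-miR-31-5p: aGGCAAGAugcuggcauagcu
hsa-miR-100-5p: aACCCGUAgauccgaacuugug
hsa-miR-125b-5p: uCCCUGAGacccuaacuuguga
hsa-let-7a-5p: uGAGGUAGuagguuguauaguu
hsa-let-7b-5p: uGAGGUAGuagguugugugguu
hsa-miR-503-5p: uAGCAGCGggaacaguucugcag
MIR205HG, host of miR-205, which lowers ZEB1 and ZEB2, had 191 and 159 FPKM in Ca1a and 0.0577 and 0 FPKM in MDA-MB-231. ZEB1 lay on the opposite side, at 8.31 and 8.07 FPKM in MDA-MB-231 and 0.132 and 0.116 FPKM in Ca1a. A link between these levels was not tested. MIR31HG, host of miR-31 next to MTAP at 9p21, had 108 and 165 reads in Ca1a and none in MDA-MB-231. MIR100HG, host of miR-100, let-7a and miR-125b, stood at 104 and 107 FPKM in Ca1a and 29.8 and 29.3 FPKM in MDA-MB-231, and MIRLET7BHG, host of let-7a and let-7b, which share the seed GAGGUAG, at 0.396 and 0.372 against 3.52 and 3.45 FPKM. MIR503HG and MIR4435-1HG were the reverse. MIR503HG had 292 and 260 reads in MDA-MB-231 and 4 and 3 in Ca1a. MIR4435-1HG, host of miR-4435, whose sequence is not shown, stood at 37.5 and 33.6 against 10.4 and 13.1 FPKM. The hosts MIR17HG and MIR4458HG were not called. Of 653 long noncoding RNAs 30.2% were higher in MDA-MB-231 and 18.2% lower, against 21.7% and 10.9% of 11056 protein-coding genes.

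The largest ratios among held genes came from genes of varied function. Besides those above, C15orf48, which encodes a small mitochondrial protein, stood at 95.7 and 95.3 against 0.216 and 0.636 FPKM, and ANXA6, the gene of the membrane-binding protein annexin A6, at 81.6 and 85.8 against 0.0522 and 0.0727 FPKM. Some genes were read in 1 line and not in the other. With at least 200 reads in both libraries of a line and at most 3 in each library of the other, 285 genes belonged to MDA-MB-231, 2.87% of the genes with 200 reads there, and 98 to Ca1a, or 1.08%. Those of MDA-MB-231 included the filamin gene FLNC (51.5 and 46.7 against 0.0078 and 0.0080 FPKM), the myosin light chain gene MYL9 (83 and 80.8 against 0 and 0.0292 FPKM), the lipolysis inhibitor gene G0S2 and the lipid droplet gene PLIN2 (52.6 and 37.3 against 0.0308 and 0.0453 FPKM). EMD, which encodes the nuclear envelope protein emerin (chromosome X, 154379197 to 154381523, plus strand), had 1647 and 1611 reads in MDA-MB-231 and 0 in both Ca1a libraries, at least 566-fold higher. Those of Ca1a included the peptidase gene ANPEP (0.0291 and 0.0187 against 73 and 72.1 FPKM), the matrix protein gene SMOC1 (0.0107 and 0.0207 against 72 and 87.7 FPKM) and the cystatin gene CSTA, with 1124 and 1082 reads in Ca1a and none in MDA-MB-231. Zinc finger genes with a ZNF symbol made up 30 of the 285 and 2 of the 98, which is 10.7% of the 280 such genes with 200 reads in MDA-MB-231 and 1.04% of 192 in Ca1a. Over the 363 ZNF genes passing the filter, 85 (23.4%) were higher, near the 21.7% of all genes, and 17 (4.68%) lower, against 11.3%.

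The share of called genes varied by chromosome. On chromosome 20, 39.3% of 341 genes were higher in MDA-MB-231, on chromosome 11 33.3% of 673, on X 32.3% of 403 and on chromosome 19 29.6% of 831, against 21.7% overall. Lower genes made up 23.5% of 170 on chromosome 18, 17.6% of 488 on chromosome 10 and 16.6% of 500 on chromosome 9, against 11.3%. The fewest higher genes lay on chromosome 13, 9.52% of 210. Copy number was not measured, and its part was not tested. Of 10 runs of at least 6 neighbouring genes held on the same side, 6 lay on chromosomes named above for their shares of higher (19, 20 and X) or lower genes (10 and 18). Runs and shares were built from the same calls, so this overlap is no separate support for a pattern by chromosome. The chromosome 20 run (23626706 to 25058980) held the cystatin genes CST3, CST4, CST1, CST2 and CST7, of which CST1 had 222 and 402 reads in MDA-MB-231 and none in Ca1a. Cystatins are inhibitors of cysteine proteases with near-identical relatives. The chromosome 12 run (52446651 to 53042209) was that of the keratins KRT6B, KRT6A, KRT5, KRT8 and KRT18, and the chromosome 10 run (71747559 to 72355230) held DDIT4 and the lysosomal gene PSAP (265 and 282 against 798 and 819.7 FPKM). The chromosome 6 run (52264009 to 53061802, 9 genes) held MCM3, higher in MDA-MB-231.

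**Figure D5:**
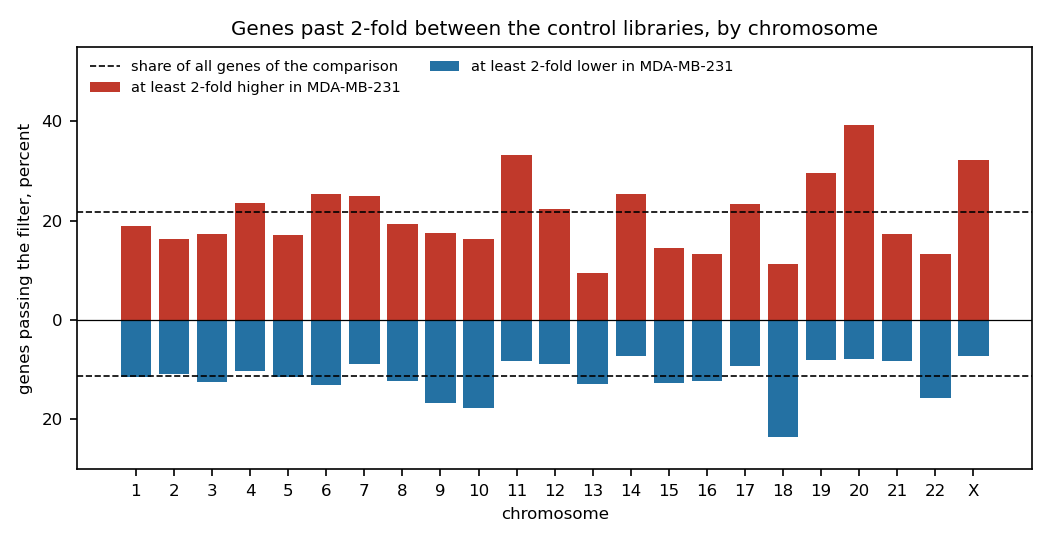
Share of the genes passing the FPKM filter that were at least 2-fold higher (red, upward) or lower (blue, downward) in the MDA-MB-231 control, in percent, by chromosome. Dashed lines mark the shares over all genes, 21.7% and 11.3%. Chromosome 20 has the tallest upward bar, 39.3%, and chromosome 18 the deepest downward bar, 23.5%.

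FPKM and reads gave the same call for most genes. Of the 2629 genes called higher on FPKM 2515 were also called higher on read counts scaled to library totals, and of the 1372 called lower 1318, with none on opposite sides. There were 47 called genes with at most 3 reads in every library. CSNK1E, a kinase gene, stood at 45.6 and 46 FPKM in MDA-MB-231 and 141 and 122 FPKM in Ca1a with 1, 0, 2 and 1 reads, and the ATP synthase gene ATP5E at 699 and 712 against 337 and 360.3 FPKM with at most 3 reads. For 34 called genes the difference did not return in the treated pair (under 0.5 or of the other sign), and 19 of them had 10 or fewer reads in each library. The read-through gene SLMO2-ATP5E, at a log2 ratio of -1.82 in the control pair and without reads in any library, is an example.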

How the data were processed

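RNA-seq of 4 cell line libraries, 1 per group, was analysed from 3 deposited tables. Per the submitters' processing notes HISAT2, Cufflinks, HTSeq and DESeq were used with GRCh38.p5 and hg38. Which step each did, the versions and the strand setting were not given in the sources used here. FPKM values per gene were made by the authors and are used as deposited. The MDA-MB-231 table holds, per the file headers, DESeq base means of 1 library each, a signal that is the reads divided by a size factor. Every value was a whole multiple of the smallest one (tolerance 1e-06), and those multiples were used as reads. The Ca1a table holds base means that are whole numbers and were used as deposited counts. These 2 tables were normalized separately, so reads of both were scaled to library totals of 20673373 to 21405193 reads. No column of per-sample values was left unassigned (0).

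Genes with FPKM of at least 1 in either control library were compared as log2 of FPKM + 1, and a ratio of at least 2-fold was called. With 1 library a side no test was run and no replicate spread is known. Intervals (exact binomial, 95%) cover counting error only, and a library's floor is 3 reads. Ratios were also centred on gene sets or scaled by TMM (edgeR 4.0.16 in R 4.3.3). The other steps ran in Python 3.11.15 (pandas 2.3.3, matplotlib 3.10.9, numpy 2.4.6, scipy 1.17.1). The steps were tested on simulated data.

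Genes were named by a rule: the markers, TMEM126A and TMEM126B, the 15 largest held ratios in each direction, up to 6 members of each list with the largest ratios and 2 in its smaller direction, the 10 most abundant genes with a log2 ratio under 0.2 in size, and 8 not repeated in the treated pair. Further members of the lists, other pathway partners, microRNA hosts, genes read in 1 line only and genes of a neighbour run were chosen after their values were seen, as were the accounts by chromosome and biotype. The members and the 37 gene lists were chosen with earlier results of these data known. Gene positions are from GENCODE release 29 on GRCh38 and were found for 11718 of the 12101 genes. Promoters and microRNAs are from RefSeq on GRCh38.p14. Some genes and 1 gene list are not reported here.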

Additional observations from a re-analysis of the deposited data

How the results depend on the processing

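The counts changed with the settings. Of 229 named genes past 2-fold, 221 kept the sign of their ratio in all 10 alternatives. Much of this was fixed beforehand. A pseudocount cannot turn a sign, and the centring shifts (0.18, 0.44 and -0.47) are too small to turn a ratio past 2-fold. Only the treated libraries, the mean of both libraries of a line and the scaled reads could do so. Most named genes were also chosen for large ratios in these data. Of 37 lists 20 kept the sign of their median in all 14 alternatives. Of the 20 lists with a median of at least 1 in size 18 kept it, the exceptions being the HOX and cancer-testis lists. With FPKM of at least 1 in both libraries the HOX median was 2.28, from 1 gene, and the cancer-testis list gave no value. Among genes, LOC105376895 turned to -0.058 with TMM, and LOC105373309 to -0.092 on reads scaled to library totals and -0.18 with TMM. Against 2629 genes higher and 1372 lower, a pseudocount of 5 gave 1072 and 712, FPKM of at least 1 in both 1378 and 825, 1.5-fold 4360 and 2299, 4-fold 748 and 465, centring on housekeeping genes 1436 and 2372, and centring on ribosomal protein genes 4624 and 782. FPKM of at least 5 gave 1687 higher, and TMM 2157 lower. Against 2266 held higher and 1158 held lower, the same settings gave 923 and 618, 1144 and 672, 3824 and 1969, 658 and 407, 1286 and 1891, and 4168 and 656, with 1488 higher at FPKM of at least 5 and 1870 lower with TMM. Against 33 genes past 2-fold within MDA-MB-231 and 19 within Ca1a, a pseudocount of 0.1 gave 70 and 48, 0.5 gave 53 and 33, and 5 gave 4 and 1. FPKM of at least 5 gave 5 and 5, and of at least 1 in both 3 and 5. A threshold of 1.5-fold gave 94 and 94, 4-fold 7 and 2, reads scaled to library totals 4 and 5, and TMM 4 and 6. Fewer or more genes past a stricter or looser filter or threshold follow from its construction, and for the scalings the cause was not tested. Leaving out the filter changes no count, since a gene under 1 FPKM in both libraries cannot reach 2-fold at this pseudocount. No paired analysis was possible because each group had 1 library. Ratios of genes near the floor of 3 reads are poorly known at these depths.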
